A study of Homo sapiens with 3 samples.

Results

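The genes described here encode the proteasome, the large protease that degrades ubiquitin-tagged proteins. They were chosen by name: every listed symbol that starts with PSMA, PSMB, PSMC, PSMD, PSME, PSMF or PSMG followed by a digit. The rule found 50 of the 18856 genes listed in at least 1 library. Of these, 46 encode subunits, activators, an inhibitor or assembly chaperones of the proteasome. The other 4 are PSMC3IP, which encodes a recombination protein named for its interaction with PSMC3, and the antisense RNAs PSMD5-AS1, PSMD6-AS2 and PSMG3-AS1. PSMA8, a testis alpha subunit, and PSMB11, the catalytic subunit of the thymus, were listed in no library.

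The 20S core particle is a barrel of outer alpha rings and inner beta rings. PSMB5, PSMB6 and PSMB7 are its proteolytic subunits, and under interferon PSMB8, PSMB9 and PSMB10 can take their places to give the immunoproteasome, which shapes the peptides shown on class I molecules. The 19S regulatory particle recognises ubiquitin, unfolds the substrate with its ring of PSMC ATPases and feeds it into the core, while the PSME proteins are alternative caps. The transcription factor NRF1 (NFE2L1) is known to raise proteasome subunit genes together when proteolysis falls short, through antioxidant response elements in their promoters.

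Each of the 3 libraries was made from 10 pg of polyA+ mRNA, and each condition had 1 library. HBE is a human bronchial epithelial cell line and A549 is a lung adenocarcinoma cell line. Both were sequenced on Ion Torrent after LIEA, a low-input method in which fragmented mRNA is ligated to adapters before reverse transcription. HBE mRNA was also sequenced on Illumina after Smart-seq2, which amplifies cDNA primed at the polyA tail before the library is built. The labels name no treatment of either line. As there are no replicates, no difference below has a replicate check and no p-value is given. Intervals are 95% intervals. Those of differences and of shares of reads cover the counting of reads only, and amplified reads are not independent molecules, so they are too narrow. Those of shares of genes and of medians run over the genes of a fixed list and hold no counting error. Genes are not replicates, so these intervals only describe the spread over the list.

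Mapped reads, as recovered, numbered 4605855 (HBE, LIEA), 4154060 (A549, LIEA) and 9845150 (HBE, Smart-seq2). The markers of the lines went with their labels. All 5 epithelial keratin and adhesion markers had at least 10 reads in every library, and the 5 basal bronchial markers summed to 1706 rpkM in LIEA of HBE and 6464 in Smart-seq2 against 9.07 in A549. The 4 markers of A549 summed to 10468 rpkM in A549 against 91.0 and 109 in the HBE libraries. Of 5 alveolar type II markers, SFTPC and SFTPA1 were listed in no library and the sums were 1.34 to 2.52 rpkM. NAPSA was listed in A549 only, with 7 reads. Leukocytes carry much immunoproteasome, and of the 5 leukocyte markers CD3E was listed in no library and PTPRC had 0 to 3 reads. The list summed to 41.9 rpkM in LIEA of HBE, 28.0 in A549 and 52.1 in Smart-seq2, nearly all from CD68 and LYZ. Of the mesenchymal markers, VIM had 4279 reads in A549 and was listed in neither HBE library, COL1A1 had 175, 93 and 85 reads, and COL1A2 was listed nowhere. The part of these genes in the results was not tested.

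Nearly every proteasome gene was quantified, meaning that it had at least 10 reads. By LIEA 49 of 50 were in HBE (98.0%, Wilson interval 89.5 to 99.6%) and again in A549, and by Smart-seq2 all 50 were. Among all listed genes 65.2%, 66.7% and 68.4% were quantified. The exception was PSMD6-AS2, with 1 read in LIEA of HBE and 7 in A549 against 35 in Smart-seq2. Together the 50 genes took 0.575% of the HBE reads by LIEA (0.568 to 0.582%), 0.583% of the A549 reads (0.576 to 0.591%) and 0.825% of the HBE reads by Smart-seq2 (0.819 to 0.830%). The share was thus alike in both LIEA libraries and higher in Smart-seq2.

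Levels are given as log2 rpkM, reads scaled to the length of the transcript and to the mapped reads of the library. Comparing genes by rpkM assumes that all transcripts are captured alike, and the differences between methods given below limit this. The median of the 46 genes was 5.84 in LIEA of HBE, 5.70 in A549 and 6.47 in Smart-seq2, against 3.28, 3.11 and 2.86 over all quantified genes. Proteasome genes were therefore expressed well above the typical gene in each library. Their levels were nevertheless uneven. Most subunits occur in equal number in the finished particle, but the 46 genes also include chaperones, alternative caps, the inhibitor and immunoproteasome genes. The 14 constitutive core genes spanned 20.7-fold in LIEA of HBE, 26.6-fold in A549 and 16.4-fold in Smart-seq2. For the 17 regulatory particle genes the spans were 7.13-fold, 13.1-fold and 6.55-fold. From the lowest to the highest, the 46 genes spanned 57.9-fold in LIEA of HBE, 57.8-fold in A549 and 181-fold in Smart-seq2, with SDs of 1.29, 1.54 and 1.46 on the log2 scale. The wider span of Smart-seq2 rested on PSME4, without which it was 58.6-fold. Across the 46 genes the levels in both LIEA libraries correlated with Pearson's r = 0.87 (0.82 over 11237 genes), and those of HBE by both methods with r = 0.67 (0.78 over 11679 genes). These are descriptions across genes of single libraries, and the pairs of libraries share either the method or the mRNA.

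**Figure D1:**
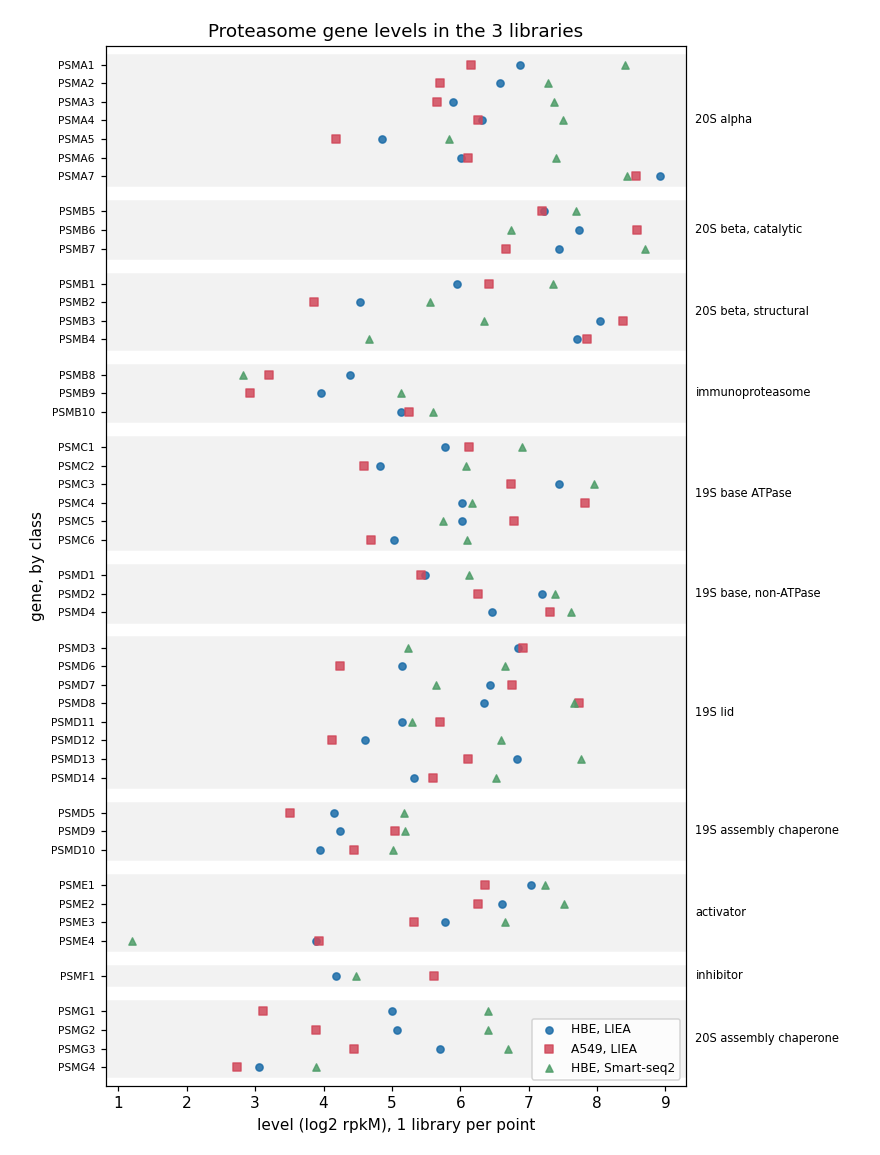
Level of each of the 46 proteasome genes (log2 rpkM, horizontal axis) by class (vertical axis), with 1 point for each library. PSMA7 and the catalytic genes PSMB5 to PSMB7 lie above the median of the 46 genes in every library, the immunoproteasome genes below it, and PSME4 of Smart-seq2 stands alone at 1.2.

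In the core particle, PSMA7 was the highest alpha subunit gene everywhere and PSMA5 the lowest. PSMA7 had a level of 8.92 in LIEA of HBE, 8.57 in A549 and 8.44 in Smart-seq2, above 98.6 to 99.1% of the quantified genes of each library. PSMA5 had 4.85, 4.19 and 5.83. The 7 alpha subunit genes thus spanned 16.8-fold in LIEA of HBE, 20.8-fold in A549 and 6.11-fold in Smart-seq2, with the narrowest spread in Smart-seq2.

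The structural beta subunits, which form the inner rings without cutting peptides, differed in their order between the methods. PSMB3 had 8.05 in LIEA of HBE, 8.38 in A549 and 6.35 in Smart-seq2. PSMB4 had 7.70, 7.85 and 4.67. Both were near the top of the LIEA libraries and lower in Smart-seq2. PSMB1 went the other way, with 5.95 in LIEA of HBE, 6.42 in A549 and 7.36 in Smart-seq2. PSMB2 had 4.54, 3.86 and 5.56, and was the lowest gene of its class in both LIEA libraries.

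The constitutive catalytic genes were above the median of the 46 genes in every library. PSMB5, the chymotrypsin-like subunit, had 7.22 in LIEA of HBE, 7.20 in A549 and 7.69 in Smart-seq2. PSMB6, the caspase-like subunit, had 7.74, 8.59 and 6.74, and PSMB7, the trypsin-like subunit, had 7.44, 6.67 and 8.70. The 3 genes lay within 1.44-fold of each other in LIEA of HBE and within 3.78-fold and 3.89-fold in the other libraries. PSMB6 was the highest of them in both LIEA libraries and the lowest in Smart-seq2.

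The immunoproteasome genes were detected in both lines, at lower levels than their constitutive counterparts. PSMB8, which takes the place of PSMB5, had 4.39 in LIEA of HBE (153 reads), 3.21 in A549 (61 reads) and 2.83 in Smart-seq2 (111 reads). PSMB9, which takes the place of PSMB6, had 3.96 (75 reads), 2.92 (33 reads) and 5.14 (365 reads). PSMB10, which takes the place of PSMB7, had 5.14 (163 reads), 5.25 (159 reads) and 5.60 (480 reads). PSMB10 was the highest of the 3 in every library, and PSMB8 was above PSMB9 in LIEA but below it in Smart-seq2.

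Set against its constitutive counterpart within a library, each immunoproteasome gene was lower in all 3 libraries. PSMB8 was at 14.1% of the rpkM of PSMB5 in LIEA of HBE, 6.30% in A549 and 3.46% in Smart-seq2. PSMB9 was at 7.25% of PSMB6 in LIEA of HBE, 1.96% in A549 and 33.0% in Smart-seq2. PSMB10 was at 20.3% of PSMB7, 37.3% and 11.6%. The order of the pairs therefore differed between the methods for the same HBE mRNA: PSMB9 had the lowest ratio by LIEA and the highest by Smart-seq2. Summed over the 3 pairs the methods were closer, as immunoproteasome genes made up 11.8% of the catalytic rpkM of HBE by LIEA and 11.1% by Smart-seq2, against 7.96% in A549.

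**Figure D2:**
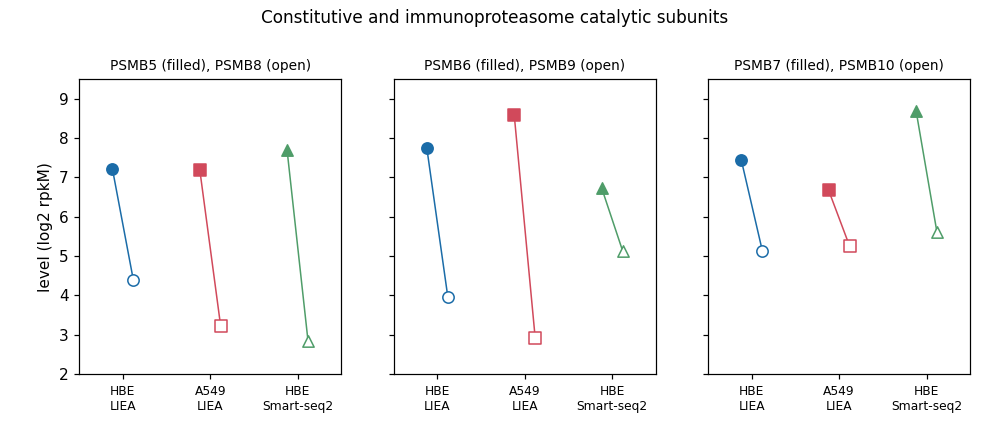
Levels (log2 rpkM, vertical axis) of the constitutive catalytic genes (filled) and of the immunoproteasome genes that replace them (open) in the 3 libraries, 1 library per point. Every open symbol lies below its filled partner, and PSMB9 minus PSMB6 runs from -1.60 in Smart-seq2 to -5.67 in A549.

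Immunoproteasome genes and the 11S activator genes PSME1 and PSME2 are interferon targets, so their promoters were searched for the core of the interferon-stimulated response element, GAAANNGAA on either strand, where N is any base. The promoter table of RefSeq (GRCh38.p14) holds 250 bases before and 50 after a start for 43 of the 50 genes. PSMA7, PSMB1, PSMB6, PSMB7, PSMD4, PSMD5-AS1 and PSMG3 are not in it. The element occurred in 8 of the 43 genes (18.6%), against 9.86% of 27305 genes in the table. They were PSMA4, PSMB4, PSMB8, PSMB10, PSMC2, PSME1, PSME2 and PSMG4. In 5 of them the match was part of one 12-base run, GAAAGCGAAAGC, on one strand or the other. That run was picked after the matches had been seen, and it occurred in 16 of the 27305 genes (0.0586%), among them also TAP2, which encodes a peptide transporter subunit. The 5 stretches are shown because they put 2 immunoproteasome genes, both subunits of the 11S activator and a chaperone gene side by side. They are written in the direction of the gene with the match in capitals, which read on the reverse strand in PSMB8 and PSME1.
PSMB8: atctgtggctTTCGCTTTCacttcctcct
PSMB10: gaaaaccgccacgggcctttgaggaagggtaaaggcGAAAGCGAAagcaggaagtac
PSME1: ccctaccgctTTCGCTTTCccttcgcggt
PSME2: cctggggagtGAAAGCGAAagcccgggcg
PSMG4: ttccggggccGAAAGCGAAagcgcgctcg
They lie on GRCh38.p14 at chr6:32844032-32844060 (minus strand), chr16:67936851-67936907 (minus strand), chr14:24136190-24136218 (plus strand), chr14:24146620-24146648 (minus strand) and chr6:3258904-3258932 (plus strand). The match began 3, 21, 28 and 33 bases before the start in PSMB8, PSMB10, PSME2 and PSMG4, and at base 7 of the transcript in PSME1. For PSMB8 this was 1 of 2 annotated starts. PSMB9 held no match in its window. Its start is 488 bases from that of TAP1, which is read in the opposite direction.

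A second interferon motif, the gamma-activated site TTCNNNGAA, occurred in 7 of the 43 genes (16.3%) against 9.38% of all. PSMB8 was the only immunoproteasome gene among them, 65 bases before the start at chr6:32844094-32844122 (minus strand): aactgtccttTTCTCGGAAaaggcagggg. The others were PSMA2, PSMB5, PSMC4, PSMD2, PSMD3 and PSME3. No match of one of the 4 motifs searched shared a base with a match of another. Matches describe letters and not binding.

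The activator genes had a steep order. PSME1 and PSME2, which encode the 11S cap PA28 alpha and beta, had 7.04 and 6.61 in LIEA of HBE, 6.36 and 6.26 in A549, and 7.24 and 7.51 in Smart-seq2. Their partner levels were within 1.35-fold of each other in each library, and in A549 the difference of 0.10 had an interval that included 0 (-0.12 to 0.33). PSME3, the nuclear cap PA28 gamma, had 5.78, 5.33 and 6.66. PSME2 was above PSME3 by 0.84 in LIEA of HBE (0.67 to 1.01), 0.93 in A549 (0.72 to 1.13) and 0.85 in Smart-seq2 (0.77 to 0.94), so this difference varied little. PSME1 minus PSME3 was 1.27, 1.03 and 0.59, and was larger by LIEA than by Smart-seq2 by 0.68 (0.52 to 0.84). PSME4, which encodes the large activator PA200, had 3.89 in LIEA of HBE, 3.94 in A549 and only 1.2 in Smart-seq2.

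Among the genes of the regulatory particle, levels lay mostly between those of the catalytic and immunoproteasome genes. In the base, PSMC3 had 7.44 in LIEA of HBE, 6.74 in A549 and 7.96 in Smart-seq2, and was the highest ATPase gene in the HBE libraries. PSMC2 was the lowest in both LIEA libraries with 4.82 and 4.59, and had 6.08 in Smart-seq2. Among the non-ATPase base genes, the scaffold gene PSMD1 was the lowest in every library (5.49, 5.43 and 6.13). The scaffold gene PSMD2 had 7.20, 6.26 and 7.38. The gene of the ubiquitin receptor PSMD4 had 6.47, 7.31 and 7.62, so that PSMD2 led in LIEA of HBE and PSMD4 in the other libraries.

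The lid genes differed more in their order. PSMD12 was the lowest lid gene by LIEA, with 4.61 in HBE and 4.12 in A549, and had 6.59 in Smart-seq2. PSMD3 was the highest in LIEA of HBE with 6.84, had 6.91 in A549, and was the lowest lid gene of Smart-seq2 with 5.24. PSMD13 had 6.83, 6.12 and 7.77, the highest value of the lid in Smart-seq2. PSMD14, the lid enzyme that removes ubiquitin chains, had 5.32, 5.60 and 6.52.

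The assembly factors do not remain in the finished particle. The base chaperone genes PSMD5, PSMD9 and PSMD10 had levels of 3.95 to 4.24 in LIEA of HBE, 3.51 to 5.05 in A549 and 5.02 to 5.19 in Smart-seq2. The recovered length of PSMD9 was far below its annotated transcript, so its reads (51, 81 and 212) are a minimum and its intervals too wide. Of the chaperone genes of the alpha ring, PSMG1, PSMG2 and PSMG3 had 5.0 to 5.70 in LIEA of HBE, 3.11 to 4.45 in A549 and 6.41 to 6.70 in Smart-seq2. PSMG4 was the lowest of the 46 genes in both LIEA libraries (3.06 in HBE and 2.74 in A549) and had 3.89 in Smart-seq2.

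The comparison of A549 with HBE, both by LIEA, asks how the cell lines differ. In A549 3 of the 46 genes were more than 2-fold higher (PSMC4, PSMD8 and PSMF1) and 5 were more than 2-fold lower (PSMB8, PSMB9, PSMG1, PSMG2 and PSMG3). With the antisense RNAs PSMD5-AS1 and PSMG3-AS1, 5 of 49 members with at least 10 reads in both libraries were past 2-fold higher (10.2%) and 5 lower (10.2%). Over all 11237 genes, 13.4% were past 2-fold higher and 17.2% lower, so members past 2-fold were not more frequent than genes past 2-fold in general. With rpkM rescaled to TPM the members split into 5 higher and 8 lower, and relative to the median of all genes into 7 and 4. The shares of all genes on these scales are not given here. The median difference of the 49 members was -0.23 (order-statistic interval -0.49 to 0.11) against -0.16 over all genes. Each sample was bulk mRNA of its cell line, so whether a difference lay in all cells or only in some cannot be told.

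**Figure D3:**
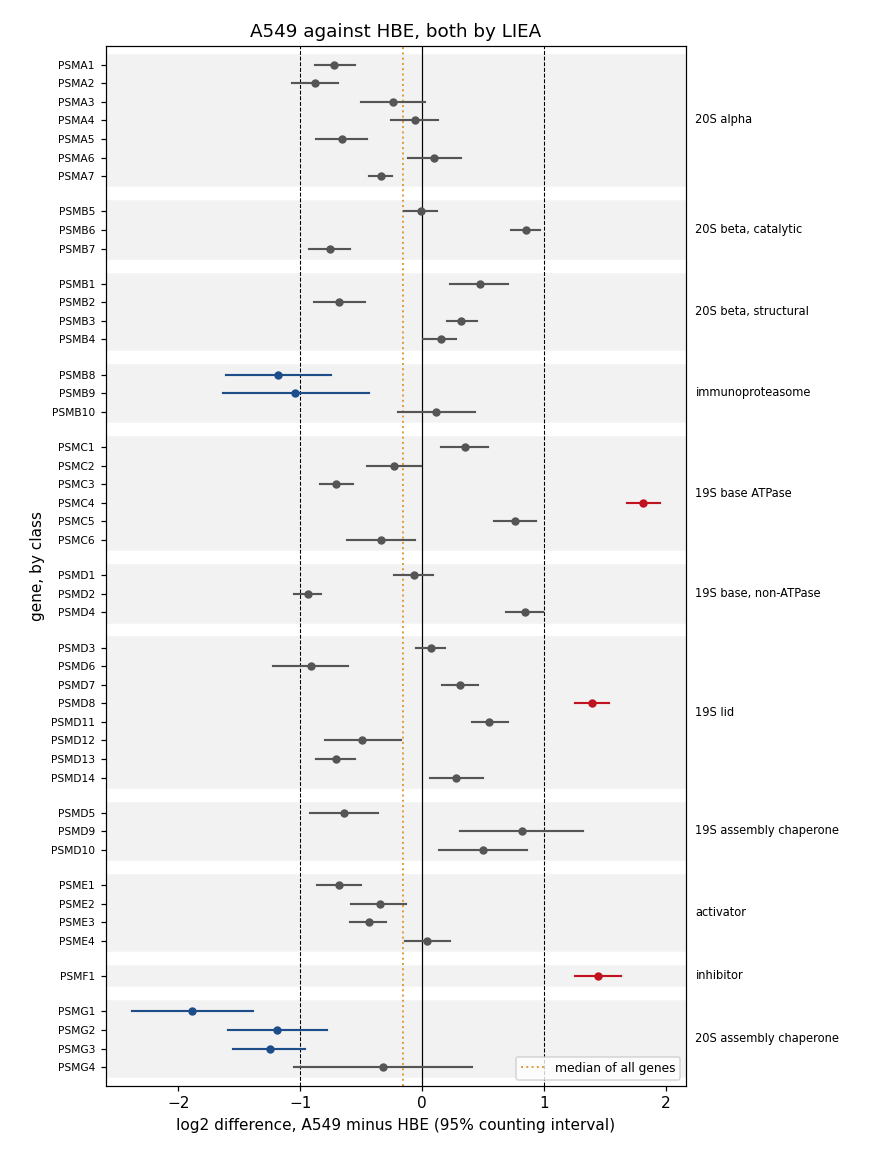
Difference of each of the 46 genes between A549 and HBE by LIEA (log2, horizontal axis), with 95% counting intervals, dashed lines at 2-fold and a dotted line at the median of all genes (-0.16). Coloured points are past 2-fold: 3 to the right, led by PSMC4 at 1.81, and 5 to the left, led by PSMG1 at -1.89.

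None of the 14 constitutive core genes, which build the barrel itself, was past 2-fold, with differences from -0.88 (PSMA2) to 0.85 (PSMB6) and a median of -0.15. Of all genes 13.4% were past 2-fold higher and 17.2% lower. In 6 of 7 alpha subunit genes the value was lower in A549, as it was in 6413 of all 11237 genes. Of the 7, 5 were below the median of all genes. The catalytic genes diverged, with PSMB6 higher by 0.85 (0.73 to 0.97), PSMB7 lower by 0.76 (a difference of -0.76, -0.93 to -0.59) and PSMB5 at -0.01 (-0.15 to 0.12). PSMA4, PSMB5 and PSMD1, all within 0.07 of 0, turned to the other side of 0 when the median of all genes was subtracted, and PSMA6, PSMB4, PSMB10, PSMD3 and PSME4 did so on the TPM scale.

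Of the 4 chaperone genes of the core 3 were past 2-fold lower in A549, where 17.2% of all genes were. PSMG1 and PSMG2 form the dimer that starts the alpha ring, and PSMG3 and PSMG4 form a further one. PSMG1 had 5.0 in HBE (168 reads) and 3.11 in A549 (41 reads), 3.70-fold lower (-1.89, -2.38 to -1.39). PSMG2 had 5.07 (174 reads) and 3.89 (69 reads), 2.27-fold lower (-1.19, -1.59 to -0.78). PSMG3 had 5.70 (333 reads) and 4.45 (126 reads), 2.38-fold lower (-1.25, -1.55 to -0.96). PSMG4 had 3.06 (36 reads) and 2.74 (26 reads), and its difference of -0.32 could not be told from 0 at this depth (-1.05 to 0.41). POMP, the other core chaperone, which lies outside the naming rule, differed by -0.32 with levels of 4.53 in HBE and 4.21 in A549.

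Of the immunoproteasome genes, PSMB8 was 2.26-fold lower in A549 (-1.18, -1.61 to -0.75) and PSMB9 2.05-fold lower (-1.04, -1.63 to -0.44), while PSMB10 had a difference of 0.11 (-0.20 to 0.43). PSMB9 was just past the 2-fold line and its interval crossed it. On GRCh37 the genes are annotated at chr6:32808494-32812456 (PSMB8, minus strand) and chr6:32811913-32827628 (PSMB9, plus strand), so these annotated spans overlap. The reads were counted on RefSeq-RNA. On GRCh38.p14 the RefSeq start of PSMB9 is at base 32854192, and 1 of 2 starts of PSMB8 is at base 32844047. Transcripts from these starts run away from each other, and the start of TAP1 at base 32853704 lies between them. Relative to the constitutive counterpart, PSMB8 was lower in A549 by 1.16 on the log2 scale (difference -1.16, -1.61 to -0.71) and PSMB9 by 1.88 (-1.88, -2.49 to -1.28). PSMB10 went the other way, with 0.88 (0.52 to 1.23). The 3 genes therefore did not differ alike. Among the activators PSME1 was 1.60-fold lower (-0.68, -0.86 to -0.50), PSME2 1.28-fold lower and PSME3 1.36-fold lower, and PSME4 was at 0.04 (-0.14 to 0.23).

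The subunit genes past 2-fold higher in A549 belonged to the regulatory particle, with the inhibitor gene besides. In the regulatory particle 2 of 17 genes were past 2-fold higher (11.8%), against 13.4% of all genes, so this was not more frequent there. On GRCh37 the higher genes are annotated at chr19:40477072-40487671 (PSMC4), chr19:38865203-38874490 (PSMD8) and chr20:1093883-1170059 (PSMF1). PSMC4, an ATPase of the base, had 6.02 in HBE (571 reads) and 7.83 in A549 (1810 reads), 3.51-fold higher (1.81, 1.68 to 1.95). PSMD8, a lid subunit, had 6.35 (579 reads) and 7.74 (1367 reads), 2.62-fold higher (1.39, 1.25 to 1.53). PSMF1, the proteasome inhibitor PI31, had 4.18 (309 reads) and 5.62 (756 reads), 2.71-fold higher (1.44, 1.25 to 1.63). The other 15 of 17 regulatory particle genes were within 2-fold, from -0.94 (PSMD2) to 0.84 (PSMD4), and the median of the 17 was 0.07. PSMC4 led the ATPase genes of A549, and PSMD8 its lid genes, which neither did in HBE by LIEA.

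The antisense RNAs rested on few reads. PSMD5-AS1 had 0.12 in HBE (19 reads) and 1.72 in A549 (52 reads), and PSMG3-AS1 had -0.35 (21 reads) and 1.87 (88 reads), 3.03-fold and 4.65-fold higher in A549. PSMG3-AS1 was thus higher where PSMG3 was lower. PSMC3IP had 3.94, 3.17 and, in Smart-seq2, 3.63. Whether the counting used strand is not given in the sources used here, so reads of a gene and its antisense RNA may have been mixed where they overlap.

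The wider pathway was read from a list of 48 genes, of which 47 had at least 10 reads in both LIEA libraries. In A549 6 of them were past 2-fold higher (12.8%) and 5 lower (10.6%), with a median of -0.20. Over all genes these shares were 13.4% and 17.2% and the median -0.16, so the list was not past 2-fold more often than genes in general. The 6 higher genes included TXNRD1, a target of NRF2, with 5.47 in HBE and 8.61 in A549 (a difference of 3.14), MAFG, a small MAF partner of NRF1 and NRF2 (1.48), and the ubiquitin gene UBB (9.17 and 10.62, a difference of 1.45). The proteasome-associated zinc finger genes ZFAND5 (1.84) and ZFAND2A (1.97, with 15 reads in HBE) were also among them. NFE2L1 and NFE2L2, the genes of NRF1 and NRF2 themselves, differed by -0.01 and 0.03. The 5 lower genes were TAP2 (5.60 in HBE and 3.06 in A549, -2.54), the ubiquitin-activating enzyme gene UBA6 (-1.55), the deubiquitinase gene UCHL5 (-1.44), B2M, the light chain of class I molecules (7.86 and 6.64, -1.21), and the ubiquitin shuttle gene RAD23B (-1.15).

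Antigen presentation genes did not shift in one direction. Of 14 with at least 10 reads, 5 were higher and 9 lower in A549, with a median of -0.49. Past 2-fold were 1 higher (7.14%) and 2 lower (14.3%), against 13.4% and 17.2% of all genes. TAP1, the divergent neighbour of PSMB9, had 4.73 in HBE and 3.78 in A549, a difference of -0.95 (counting SE 0.23) beside -1.04 for PSMB9. HLA-C was at -0.44 and HLA-E at 0.07. ERAP2, a peptide trimming enzyme gene, had 122 reads in HBE and 6 in A549 and so was outside the count.

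The comparison of LIEA with Smart-seq2 asks how the library method sets the values, as both libraries came from HBE. It shares the LIEA library of HBE with the comparison of the lines, so the values of both are given side by side and not related. By LIEA, 6 of 49 members were past 2-fold higher (12.2%) and 20 past 2-fold lower (40.8%). Over all 11679 genes, 27.7% were past 2-fold higher and 19.4% lower. The members were therefore more often lower by LIEA than genes in general, and less often higher. With rpkM rescaled to TPM the split was 6 and 12, and relative to the median of all genes 5 and 24. For these scales too the shares of all genes are not given here. The members' median difference was -0.90 (order-statistic interval -1.07 to -0.46) against 0.10 over all genes, and 37 of 49 were below 0. Both the method and the sequencer differed between these libraries and cannot be told apart.

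**Figure D4:**
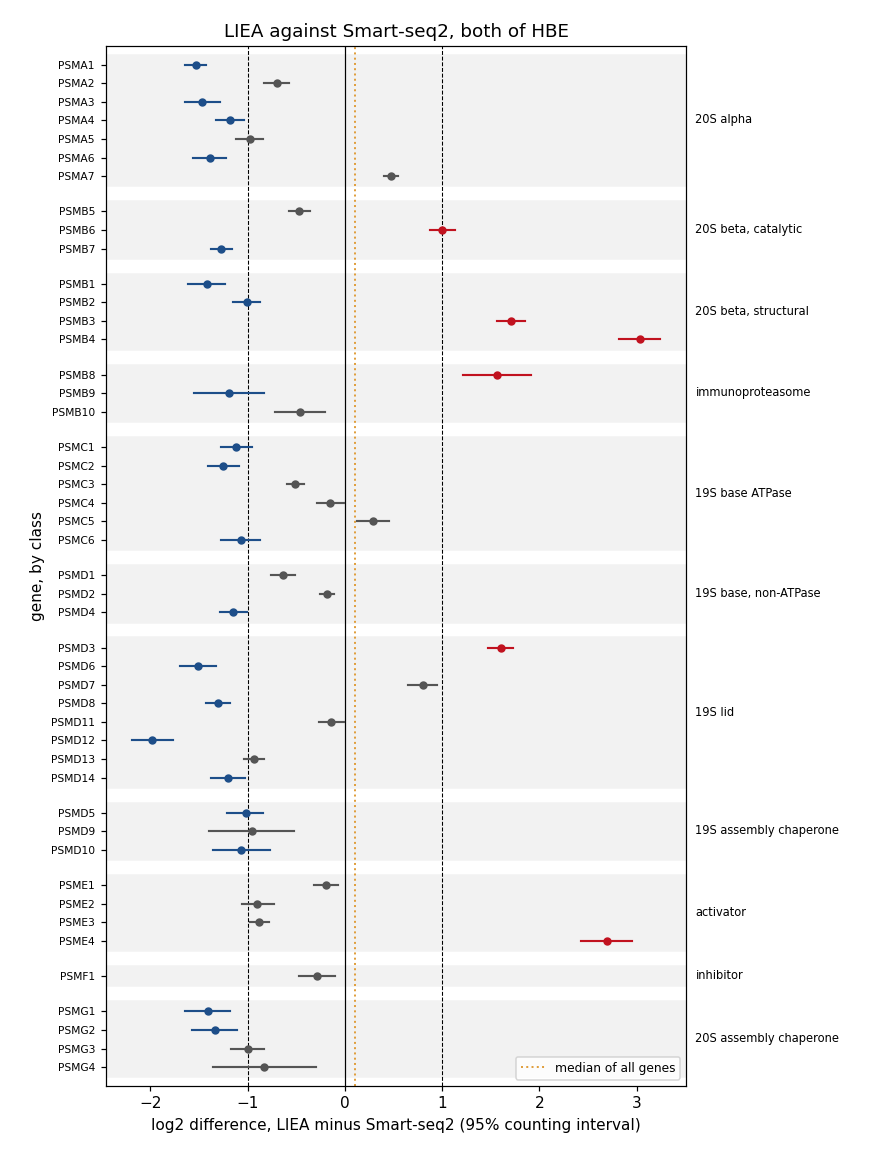
Difference of each of the 46 genes between LIEA and Smart-seq2 of HBE (log2, horizontal axis), with 95% counting intervals, dashed lines at 2-fold and a dotted line at the median of all genes (0.10). Most points lie left of 0, and 6 coloured points lie at or past 2-fold to the right, with PSMB4 at 3.03 and PSME4 at 2.69 farthest out.

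Of the 6 genes past 2-fold higher by LIEA, PSMB4 and PSME4 stood farthest out. PSMB4 had 888 reads by LIEA and 232 in the deeper Smart-seq2 library, and was 8.18-fold higher by LIEA (3.03, 2.82 to 3.24). PSME4 was 6.45-fold higher (2.69, 2.43 to 2.95), with 486 reads against 161. PSMB3 was 3.26-fold higher (1.71, 1.56 to 1.85), PSMD3 3.03-fold (1.60, 1.47 to 1.73) and PSMB8 2.95-fold (1.56, 1.21 to 1.91). PSMB6 stood on the line at 2.0-fold (1.0, 0.87 to 1.13). These 6 came from 5 classes, so no class was higher as a whole.

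Lower values by LIEA ran through most classes. PSMD12 was 3.95-fold lower (-1.98, -2.19 to -1.77), the most of all members with at least 10 reads in both libraries. Among the alpha subunits, PSMA1 (-1.53), PSMA3 (-1.47), PSMA6 (-1.39) and PSMA4 (-1.18) were past 2-fold lower, and PSMA7 alone was higher (0.47, 0.40 to 0.55). PSMA2 (-0.70) turned to the other side of 0 relative to its GC range. In the beta rings PSMB1 (-1.42), PSMB7 (-1.27) and PSMB2 (-1.01) were past 2-fold lower, opposite to PSMB3 and PSMB4. PSMB9 was 2.28-fold lower (-1.19, -1.55 to -0.83), opposite to PSMB8.

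In the regulatory particle 8 of 17 genes were past 2-fold lower by LIEA (47.1%) and 1 was higher (5.88%). The shares were 40.8% and 12.2% over all members, and 19.4% and 27.7% over all genes. Besides PSMD12 the lower genes were PSMC1 (-1.12), PSMC2 (-1.25), PSMC6 (-1.07), PSMD4 (-1.15), PSMD6 (-1.51), PSMD8 (-1.31) and PSMD14 (-1.20). PSMC4 (-0.15), PSMD2 (-0.18) and PSMD11 (-0.14) lay within 0.18 of 0, and PSMC5 (0.29) and PSMD7 (0.80) were above it. Of these, PSMC4, PSMD2 and PSMD11 changed side on the TPM scale, and PSMC5 relative to its GC range. The chaperone genes PSMG1 (-1.41), PSMG2 (-1.34), PSMD10 (-1.07) and PSMD5 (-1.02) were also past 2-fold lower, and PSMG3 (-1.0) was just inside. PSMG1, with 5.0 by LIEA and 6.41 by Smart-seq2, had thus a lower value in LIEA of HBE than in Smart-seq2 of HBE, and a still lower one in LIEA of A549 (3.11).

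Genes that act with the proteasome were counted by group. Of all genes 27.7% were past 2-fold higher by LIEA and 19.4% lower. Of 11 proteasome-associated genes 7 were past 2-fold lower by LIEA (63.6%) and 0 higher, with a median of -1.25. POMP had 4.53 by LIEA and 7.45 by Smart-seq2 (-2.93), and SHFM1, the small lid subunit also called DSS1, had 6.42 and 8.12 (-1.70). ZFAND2A (-2.97), USP14 (-1.40), TXNL1 (-1.35), AKIRIN2 (-1.25) and UCHL5 (-1.23) were the rest. Of 14 ubiquitin and VCP genes 4 were past 2-fold higher by LIEA (UBQLN4, NPLOC4, RAD23B and UBA1, 1.38 to 2.84) and 0 lower. The higher share of 28.6% was close to that of all genes. The 8 genes of the NRF1 and NRF2 group were on both sides, with 37.5% past 2-fold higher and 37.5% lower. MAFK (4.24), NFE2L1 (3.24) and MAFG (2.10) were higher by LIEA and MAFF (-2.40), NFE2L2 (-1.29) and NGLY1 (-1.17) lower. Of 15 antigen presentation and interferon genes, TAP2 (2.84), IRF2 (1.46), IRF9 (1.42) and ERAP1 (1.04) were higher (26.7%, close to the share of all genes) and B2M (-1.95) lower (6.67%). Over the 48 genes 11 were past 2-fold higher (22.9%) and 11 lower (22.9%), against 27.7% and 19.4% of all genes.

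Over all genes the median difference between methods rose with GC content and, from 1000 nt on, with length. Among the proteasome genes it was less steady. The transcripts of the 46 genes had a median GC content of 48.5% (36.4 to 61.7%), close to the 48.2% of all genes, and a median recovered length of 1517 nt against 3044 nt. Of 17 proteasome genes below 45% GC, 13 (76.5%) were past 2-fold lower by LIEA against 31.4% of all genes of that range, with a median of -1.18 against -0.48 over all genes of that range. From 50 to 55% GC the medians were -0.20 for 15 proteasome genes and 0.44 for all genes, and from 55% on -0.49 for 6 and 0.79 for all. Among genes of 1000 to 2000 nt, the 27 proteasome genes had a median of -1.07 and all genes -0.37. Below 1000 nt the medians were -0.86 for 8 proteasome genes and -0.33 for all genes. From 2000 to 4000 nt they were -0.76 for 8 and -0.01 for all. With the median of each GC range of 5 percentage points subtracted, the members' median was -0.80. From 4000 nt on the median was -0.14 for 3 proteasome genes and 0.59 for all genes. PSME4, at 42.2% GC, and PSMB4, at 52.0%, stood far above the genes of their GC range. With 7099 nt, PSME4 was also the longest of the 46 genes by recovered length. The part of GC content and length in the result was not tested beyond this.

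**Figure D5:**
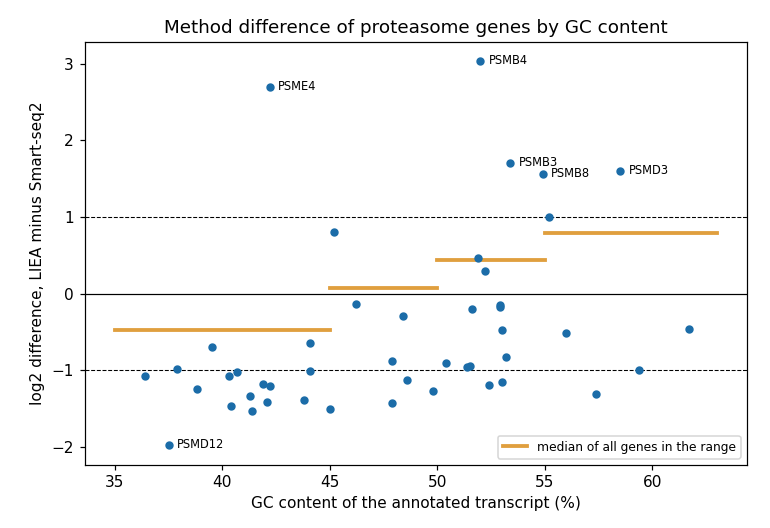
Difference between LIEA and Smart-seq2 of HBE (log2, vertical axis) against the GC content of the annotated transcript (percent, horizontal axis) for the 46 genes, with the median of all genes in each GC range as a bar and dashed lines at 2-fold. The bars rise from -0.48 below 45% to 0.79 from 55% on, and most proteasome genes lie below the bar of their range.

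Antioxidant response element cores were looked for as the common signal of these promoters. The letters TGACNNNGC occurred on either strand in 15 of the 43 genes (34.9%) against 16.1% of all genes in the table. The genes were PSMA4, PSMB3, PSMB9, PSMC4, PSMC5, PSMD1, PSMD3, PSMD5, PSMD9, PSMD12, PSME1, PSME2, PSME4, PSMG1 and PSMG2. The stretches below belong to genes past 2-fold in at least 1 of the comparisons, in both directions, with the match in capitals in the direction of the gene.
PSMC4: acagaggccgGCTTGGTCActatggagga
PSMG1: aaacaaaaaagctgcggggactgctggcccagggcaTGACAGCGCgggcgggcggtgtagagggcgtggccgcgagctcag
PSMB3: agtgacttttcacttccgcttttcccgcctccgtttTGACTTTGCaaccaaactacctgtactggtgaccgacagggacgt
PSMD12: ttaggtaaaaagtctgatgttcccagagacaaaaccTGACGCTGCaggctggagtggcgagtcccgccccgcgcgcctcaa
PSMA4: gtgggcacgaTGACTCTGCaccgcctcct
On GRCh38.p14 they lie at chr19:39971182-39971210 (plus strand), chr21:39183590-39183670 (minus strand), chr17:38752601-38752681 (plus strand), chr17:67366698-67366778 (minus strand) and chr15:78540650-78540678 (plus strand). The match began 183, 104, 165 and 126 bases before the start in PSMG1, PSMB3, PSMD12 and PSMA4, the last being 1 of 3 annotated starts, and at base 28 of the transcript in PSMC4.

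Genes with and without a match can be set side by side, without a test, over the 40 of the 46 genes with a promoter in the table. Between the lines, the 15 genes with the antioxidant core had differences from -1.89 (PSMG1) to 1.81 (PSMC4), with a median of -0.07, and the 25 genes without it from -1.18 to 1.44, with a median of -0.24. Between the methods the medians were -0.90 and -0.94. The CCAAT box bound by NF-Y occurred on either strand in 20 of the 43 genes (46.5%) against 39.7% of all genes. The medians were -0.23 over 19 genes with it and -0.32 over 21 without it between the lines, and -1.01 and -0.83 between the methods. For the interferon-stimulated element they were -0.27 over 8 genes and -0.15 over 32 between the lines, and -0.65 and -0.97 between the methods. For the gamma-activated site they were -0.44 over 7 genes and -0.23 over 33 between the lines. Between the methods, which were both applied to HBE mRNA, they were -0.18 with it and -1.01 without it. PSMB5, PSMB8, PSMC4, PSMD2 and PSMD3 of the 7 genes had 52.9 to 58.5% GC, PSMA2 39.5% and PSME3 47.9%. The median of the 46 genes was 48.5%, and the part of GC content here was not tested.

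Pseudogenes, which can resemble their parent genes closely, may share reads with them. GENCODE names pseudogenes after 17 of the 50 members, most often PSMC1 with 13, PSME2 with 6 and PSMA6 with 4. PSMC4, PSMF1, PSMB4, PSMB8, PSMB9, PSMG1, PSMG2 and PSME4 have none named after them, whereas PSMD8, PSMB3 and PSMG3 have 1, 2 and 2. Sequence identity and the sharing of reads were not tested.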

How the data were processed

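The data are 3 libraries of cell line mRNA, with 1 library per condition. Per the labels, hg19 was the genome build. The authors mapped reads with FANSe2 to RefSeq-RNA, merged splice variants, called a gene quantified from 10 reads on, and deposited log2 rpkM per gene, in which genes without reads are not listed. Reads were recovered here, because rpkM is reads divided by length and total: the total was the number at which at least 70% of 300 low genes gave whole lengths, and the unknown whole factor that a gene's reads and length share was chosen from 1 to 12 by annotated length. It was above 1 for 849 of 18856 genes and for no member. Reads summed to 96.1 to 96.6% of the totals. In simulated data 3 of 3 totals and, over 18322 genes, 92.2% of reads came back exactly. In each library 4 rows, whose symbols had become dates, were left out. An annotated length was found for 94.0% of genes, by symbol or RefSeq synonym (GENCODE release 44 on GRCh37).

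A difference was called past 2-fold when both libraries had at least 10 reads. Counting intervals of log2 differences came from recovered reads, shares have Wilson intervals and medians order-statistic intervals. An unlisted gene had no reads, and its expected number of reads may have been up to 3. Motifs were searched as written, on both strands, and a gene counted once over its starts. Sequence stretches that share letters with an annotated transcript were cut to 10 bases around the match. The proteins were not analysed here. Some pathway genes that were counted are not reported here by name. The members, gene lists and alternatives were chosen with earlier results of these data known. Named by rule were the catalytic, immunoproteasome and activator genes, members past 2-fold, the highest and lowest of other classes, and pathway genes past 2-fold. The alternatives were other minimum reads, scalings, a pseudocount of 1, GC ranges, a 1.5-fold line and the smallest whole reads. Python 3.11.15, numpy 2.4.6, scipy 1.17.1 and matplotlib 3.10.9 were used.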

Additional observations from a re-analysis of the deposited data

How the results depend on the processing

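No paired analysis was possible because no condition had a second library, and for the same reason none could be left out. Of 77 alternative values, 68 kept within the error or 1.5 times the value reported, and 9 did not. Between the lines, 3 members were past 2-fold higher and 1 lower (PSMG3) when 100 reads were required in both libraries, since PSMB8, PSMB9, PSMG1, PSMG2 and the antisense RNAs were then not compared. A line at 1.5-fold gave 9 higher and 17 lower of 49 members. Shares of all genes under these alternatives are not given here, so these counts are not read as a lean of the members. Rescaling to TPM gave 8 lower between the lines, adding PSMA2, PSMD2 and PSMD6, and 12 lower by LIEA against Smart-seq2. It moved the median of all genes from -0.16 to -0.32 and from 0.10 to 0.30, and the members' median stayed 0.07 below that of all genes between the lines (-0.07) and 0.99 below it between the methods (-0.99). PSMB9 was not past 2-fold between the lines on the log2(rpkM + 1) scale, relative to the median of all genes or of the GC range, or with totals without the 100 genes with most reads. PSMB6 was past 2-fold between the methods in 5 of the 9 settings and PSMD3 in 8 of 9. Without the 100 genes with most reads in the totals, the members' share of reads was 0.70% in LIEA of HBE, 0.768% in A549 and 1.08% in Smart-seq2. Members' median between the lines ran from -0.39 to 0.04 over the alternatives, and between the methods from -1.0 to -0.70. In the A549 library PSMB9, PSMG1, PSMB8 and PSMG2 had 33 to 69 reads, and in LIEA of HBE PSMD5-AS1 and PSMG3-AS1 had 19 and 21.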
